A study of Mus musculus with 6 samples.

Results

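Among the miRNAs most often named as drivers of liver cancer are miR-21, miR-221 and miR-222. Their guide strands, the arms of the precursor that are loaded into the silencing complex, were examined in the livers of mice with Wnt-dependent hepatocarcinoma (HCC). The 3 probes (mmu-miR-21, mmu-miR-221 and mmu-miR-222) were picked by name, and each miRNA had 1 probe among the 599 probes of the panel, of which 566 were for mouse miRNAs. No probe of the panel was marked as a passenger strand by an asterisk (0 probes), though some miRNAs, such as miR-126, had a probe for each arm. With 1 probe for each member, their opposite arms were not followed. Expression was measured with the NanoString assay, which counts miRNA molecules caught by colour-coded probes without amplifying them. RNA came from frozen liver of 3 *Apcfl/fl* mice, which carry a hypomorphic floxed *Apc* allele in homozygous form and whose livers held tumours in which Wnt/β-catenin signalling was active, and from normal liver of 3 *Apc+/+* mice. All 6 mice were on the C57Bl/6 background and none is described as treated. No Cre is named for these mice, and their age and the tumour content of each piece of liver are not given in the sources used here. The comparison asked whether all 3 miRNAs were higher in *Apcfl/fl* than in *Apc+/+* liver.

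A miRNA guides the silencing complex to messenger RNAs that pair with its seed, bases 2 to 8 from its 5′ end, and lowers the output of these transcripts. MiR-21 is an abundant miRNA of many tissues that increases in inflammation, fibrosis and cancer, and it targets the tumour suppressor *Pdcd4*. MiR-221 and miR-222 come from a shared cluster, are rich in endothelial and proliferating cells, and target the cell cycle inhibitor *Cdkn1b*. All 3 have been described as raised in human HCC.

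The mature sequences are shown because the seed decides which transcripts a miRNA can reach, and because close relatives could be read by the same probe. They were taken from RefSeq (GRCm38.p6), where 3 of the 3 members had an entry, and run 5′ to 3′ with the seed in capitals. MiR-21b, miR-21c and miR-1928 are shown as the nearest relatives.
miR-21: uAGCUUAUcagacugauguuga
miR-21b: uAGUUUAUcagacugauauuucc
miR-21c: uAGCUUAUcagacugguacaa
miR-221: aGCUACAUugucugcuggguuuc
miR-222: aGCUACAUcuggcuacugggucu
miR-1928: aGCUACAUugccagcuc

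MiR-21 is the entry miR-21a-5p of *Mir21a*, on the minus strand of chromosome 11 (chr11:86584120-86584141), inside the annotated span of the protein-coding gene *Vmp1*. MiR-221 and miR-222 are the 3p arms of *Mir221* (chrX:19146307-19146329) and *Mir222* (chrX:19146901-19146923), both on the minus strand. The hairpins of *Mir221* and *Mir222* lie 504 bases apart, with 0 other genes annotated as lying wholly between them. Genes that span or overlap this stretch were not counted. MiR-221 and miR-222 had the same first 8 bases, and so the same seed, but were identical at 11 of 23 positions when laid side by side without gaps. MiR-21 had another seed, and matched miR-221 at 4 of 22 positions. MiR-21c shared the first 15 bases of miR-21 and its seed, whereas miR-21b differed within the seed. MiR-21b and miR-21c had no probe of their own, so molecules of either that the miR-21 probe may have caught cannot be separated. In the RefSeq table only miR-1928 shared the seed of miR-221 and miR-222 among the other miRNAs with a probe on the panel.

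The deposited values were counts with a constant already taken off each probe, and their total over mouse miRNAs was 82942 to 133331 per liver. They were scaled with edgeR's TMM factors, which ranged from 0.655 to 1.25. MiR-720, a probe of very high counts, took 33% of the counts of *Apc+/+* liver 3 and 15.7% to 25.7% of those of the other livers. The liver marker miR-122 was present in every liver, with 6688 to 29686 counts. Background was judged from the 33 probes for miRNAs of mouse viruses, and their mean plus 2 SD gave a limit of 13.1 to 27.8 counts per liver. The edgeR quasi-likelihood test was run on 174 mouse miRNAs whose mean count reached at least 20, and all 3 members passed this minimum. Their mean counts were 6330 for miR-21, 26.8 for miR-221 and 25.3 for miR-222, so the last pair passed it narrowly. MiR-222 reached it only through the *Apcfl/fl* livers, since its control counts were 16, 16 and 15. Across all tested miRNAs, 0 were higher (0%) and 0 lower (0%) in *Apcfl/fl* liver at an adjusted p-value under 0.05 in edgeR's test. At an unadjusted p-value under 0.05, 24 were higher (13.8%) and 19 lower (10.9%). At the adjusted threshold DESeq2 gave 20 higher and 9 lower, and limma gave 1 higher and 3 lower.

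MiR-21 was the member with a clear difference. It was counted 2127.33, 2583.33 and 3477.33 times in *Apc+/+* livers 1 to 3, against 10388.33, 7482.33 and 11929.33 times in *Apcfl/fl* livers 1 to 3. All values lay far above the viral probe limit, and every *Apcfl/fl* liver lay above every *Apc+/+* liver. After scaling, the normalized count averaged 3376 ± 813 in controls and 8367 ± 848 in *Apcfl/fl* livers (SD, n = 3 each). The fitted difference was 2.48-fold (95% confidence interval 1.68 to 3.65), a log2 fold change of 1.31 (standard error 0.24). Its adjusted p-value in edgeR's test was 0.056, the smallest of the table and shared by 11 miRNAs (6.32%), so the difference did not pass the adjusted threshold. Its unadjusted p-value of 0.00088 in edgeR's test was the 2nd smallest of the 174. The normalized count of the lowest *Apcfl/fl* liver was 1.83 times that of the highest *Apc+/+* liver. In a two-sided exact permutation test p was 0.1, the smallest that 3 mice against 3 allow. Of the tested miRNAs, 26 were higher in *Apcfl/fl* liver without overlap (14.9%), so separation alone was common in this comparison. In bulk liver, a change in the number of cells that make a miRNA cannot be told apart from a change in its level per cell.

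**Figure D1:**
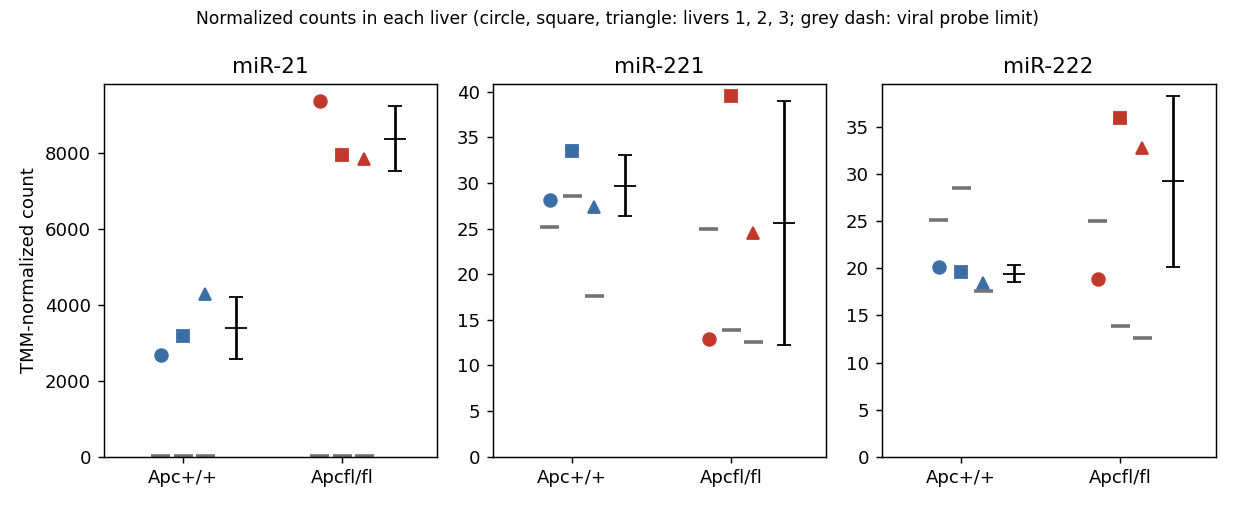
TMM-normalized counts (y axis, linear, 1 panel per miRNA) of miR-21, miR-221 and miR-222 in the 3 *Apc+/+* (blue) and 3 *Apcfl/fl* (red) livers, with the mean and SD of each genotype in black and each liver's viral probe limit as a grey dash. The genotypes are apart for miR-21 (3376 ± 813 against 8367 ± 848), while miR-221 and miR-222 lie near the limit and overlap.

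MiR-21 was also higher as a share of each liver's counts, which amounts to scaling by the total count. Of all mouse miRNA counts it made up 2.56%, 2.78% and 2.61% in controls, against 10.8%, 7.27% and 9% in *Apcfl/fl* livers. The control livers lay close together and the *Apcfl/fl* livers were all higher (two-sided exact permutation test, p = 0.1). How many of all tested miRNAs were higher by share without overlap was not counted. Ordered by deposited count, miR-21 stood 7th, 6th and 5th among the mouse probes in controls, against 2nd, 3rd and 3rd in *Apcfl/fl* livers. Counts of different probes also depend on how well each probe catches its miRNA, so this order is that of the probes. With TMM scaling, 23 tested miRNAs had a mean normalized count of at least 1000. Of these 23, 6 had a fitted level above that of *Apc+/+* liver, beside 88 of all 174 (50.6%). The number was not taken with other scalings and may differ there. Scaled by the total count, the 174 had a median of 0.45 on the log2 scale, against 0.01 with TMM. MiR-21 had the largest log2 fold change of these 23, followed by the red cell miRNA miR-451 with 1.18. Of all 174, 22 miRNAs had a larger log2 fold change than miR-21.

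**Figure D2:**
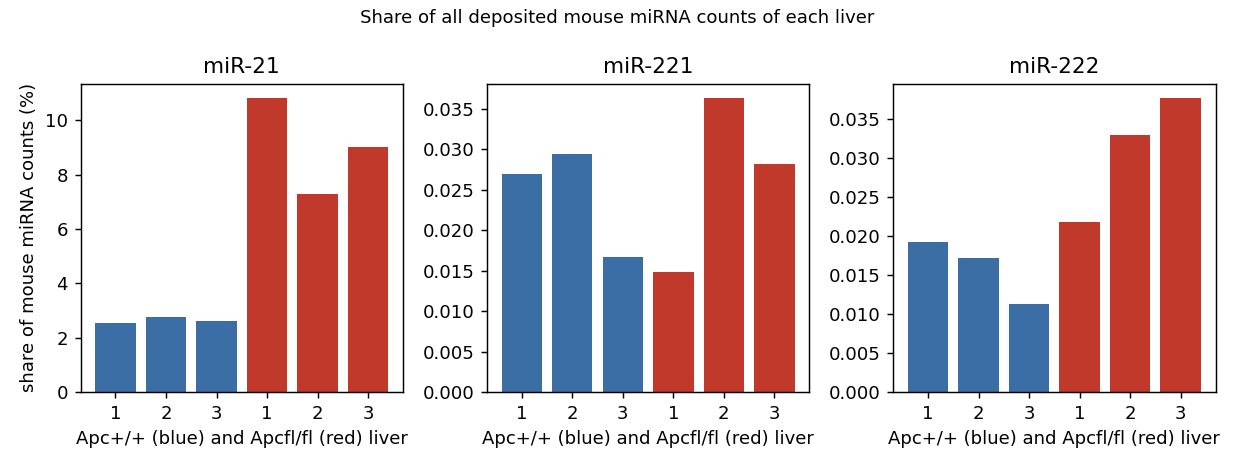
Share of all deposited mouse miRNA counts (y axis, percent, linear from 0) taken by each member in livers 1 to 3 of *Apc+/+* (blue bars) and *Apcfl/fl* (red bars) mice, so that each liver is scaled by its own total. MiR-21 takes 2.56% to 2.78% in *Apc+/+* and 7.27% to 10.8% in *Apcfl/fl* liver. The shares of miR-222 do not overlap either, from 0.0113% to 0.0193% against 0.0218% to 0.0377%. In *Apc+/+* livers 1 and 2 and *Apcfl/fl* liver 1, however, its count was not above the viral probe limit. How many of all tested miRNAs are apart by share was not counted.

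MiR-221 was not higher in *Apcfl/fl* liver by any measure that passed a test. Control livers had 22.33, 27.33 and 22.33 deposited counts of it, and *Apcfl/fl* livers had 14.33, 37.33 and 37.33. All 3 *Apc+/+* livers and 2 of the 3 *Apcfl/fl* livers were above the viral probe limit, the exception being *Apcfl/fl* liver 1, which had the lowest count of all. There, counting error alone gave an exact Poisson 95% interval of 7.65 to 23.5 counts, and in the other livers the intervals ran from 13.8 at the lowest to 51 at the highest. These intervals leave out the error of the constant that had been subtracted. Normalized counts averaged 29.72 ± 3.34 in controls and 25.65 ± 13.4 in *Apcfl/fl* livers (SD, n = 3 each). The *Apcfl/fl* livers lay both above and below the controls, at 12.89, 39.54 and 24.51. The fitted log2 fold change of -0.20 had a standard error of 0.48 and a 95% interval of -1.33 to 0.93, and edgeR's test gave an adjusted p-value of 0.82. Without *Apcfl/fl* liver 1 it was 0.11, and with the total count as library size it was 0.12.

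MiR-222 was counted 16, 16 and 15 times in controls and 21, 34 and 50 times in *Apcfl/fl* livers. Each *Apcfl/fl* liver had more counts than any control, but in *Apc+/+* livers 1 and 2 and in *Apcfl/fl* liver 1 the count did not exceed the limit set by the viral probes. Normalized counts averaged 19.42 ± 0.905 in controls and 29.24 ± 9.11 in *Apcfl/fl* livers (SD, n = 3 each). On this scale *Apcfl/fl* liver 1, at 18.89, fell among the controls, and livers 2 and 3 were higher at 36.01 and 32.83. The fitted log2 fold change of 0.54 had a standard error of 0.41 and a 95% interval of -0.42 to 1.51. It passed neither edgeR's test (adjusted p = 0.42) nor the two-sided exact permutation test (p = 0.3). As a share of all mouse miRNA counts miR-222 was 0.0193%, 0.0172% and 0.0113% in controls, against 0.0218%, 0.033% and 0.0377% in *Apcfl/fl* livers. By share the genotypes were apart (exact permutation p = 0.1, two-sided), whereas with TMM scaling they overlapped, so the separation of the genotypes depended on the scaling. How many of all tested miRNAs were apart by share was not counted. With the total count as library size their median log2 fold change was already 0.45, and that of miR-222 was 0.89 (adjusted p = 0.36 in edgeR's test). The 95% intervals allowed a fold of 0.397 to 1.91 for miR-221 and of 0.747 to 2.85 for miR-222.

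MiR-1928, which shares the seed of miR-221 and miR-222, had a mean of 10.8 counts and was not tested. Controls had 18, 15 and 8 counts of it and *Apcfl/fl* livers 14, 2 and 8, and no liver exceeded the viral probe limit.

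The members were next compared with each other inside each liver, since a ratio of 2 probes does not change with the scaling between livers. The 3 ratios were tested with two-sided exact permutation tests, adjusted over the 3. The ratio of miR-21 to miR-221 counts was 95.3, 94.5 and 156 in controls, against 725, 200 and 320 in *Apcfl/fl* livers. It was higher in every *Apcfl/fl* liver, with a difference of 1.68 in mean log2 ratio (6.81 ± 0.41 against 8.49 ± 0.94, SD, n = 3, exact permutation p = 0.1, adjusted p = 0.15). The low miR-221 count of *Apcfl/fl* liver 1 gave the highest ratio, and without that liver the difference was 1.18.

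The ratio of miR-222 to miR-221 was 0.717, 0.585 and 0.672 in controls, against 1.47, 0.911 and 1.34 in *Apcfl/fl* livers. MiR-222 thus had fewer counts than miR-221 in every control and more in *Apcfl/fl* livers 1 and 3. The mean log2 ratio was -0.61 ± 0.15 in *Apc+/+* and 0.28 ± 0.36 in *Apcfl/fl* liver (SD, n = 3), a difference of 0.89 (exact permutation p = 0.1, adjusted p = 0.15). In 3 of the 6 livers, *Apc+/+* livers 1 and 2 and *Apcfl/fl* liver 1, at least 1 of these probes was not above the viral probe limit, so the ratios there are not exact folds. With the mean viral probe count subtracted the difference was 1.73. The ratio of miR-21 to miR-222 was 133, 161 and 232 in controls, against 495, 220 and 239 in *Apcfl/fl* livers, where *Apcfl/fl* liver 2 lay under the highest control. Its mean log2 ratio differed by 0.79 (exact permutation p = 0.2, adjusted p = 0.2), so an unequal change of miR-21 and miR-222 was not shown. Without *Apcfl/fl* liver 1 this difference was 0.42, and with the mean viral probe count subtracted it was 0.10.

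**Figure D3:**
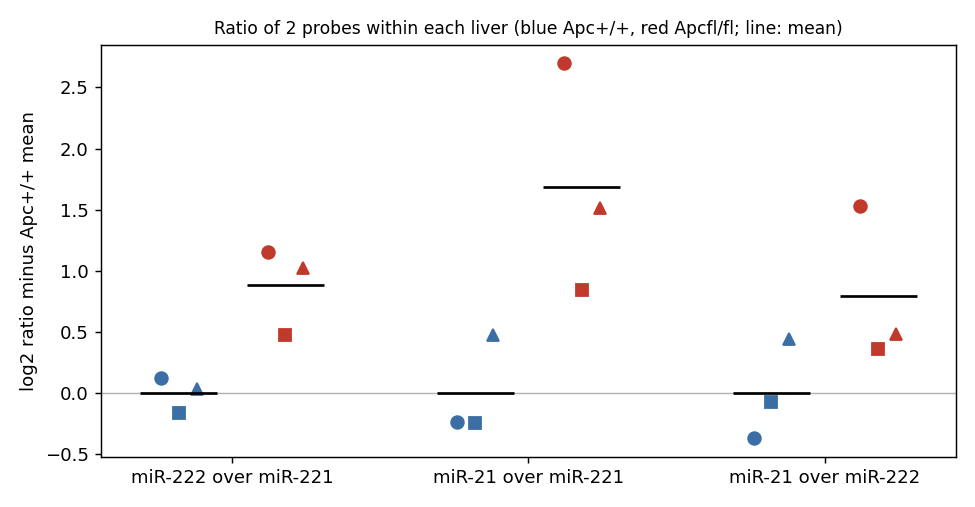
Log2 ratio of 2 probes in each liver after subtraction of the *Apc+/+* mean (y axis), for *Apc+/+* (blue) and *Apcfl/fl* (red) livers 1 (circle), 2 (square) and 3 (triangle), with the mean of each genotype as a line. The ratios over miR-221 are higher in all 3 *Apcfl/fl* livers, by 0.89 for miR-222 and 1.68 for miR-21, and the ratio of miR-21 to miR-222 overlaps.

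Over the 6 livers the normalized log2 levels of the members did not run together. Pearson's r was 0.42 between miR-221 and miR-222, 0.53 between miR-21 and miR-222 and -0.43 between miR-21 and miR-221, as a description over livers that share their scaling. The tested miRNAs most like miR-21 were miR-191 (r = 0.96), miR-675-3p (r = 0.96) and miR-25 (r = 0.95). Each of these, like miR-21, was higher in *Apcfl/fl* liver without overlap. Their r therefore holds the difference between the genotypes and shows no likeness beyond it. MiR-25 belongs to a cluster often raised in proliferating cells, and its counts were 170.33, 154.33 and 184.33 in controls, against 564.33, 382.33 and 543.33 in *Apcfl/fl* livers. MiR-675-3p, which is cut from the imprinted *H19* transcript, exceeded the viral probe limit in the 3 *Apcfl/fl* livers and in 0 controls. It reached the count minimum only through the *Apcfl/fl* livers, so its r with a miRNA that separates the genotypes was built in.
The miRNAs with the highest r to miR-222 were miR-155 (0.99), miR-98 (0.93) and let-7i (0.91). MiR-155, a miRNA of activated leucocytes, stood at the lowest value of 1 in all *Apc+/+* livers and in *Apcfl/fl* liver 1, and at 78.33 and 58.33 in *Apcfl/fl* livers 2 and 3. Its r was therefore set by these 2 livers, in which miR-222 was high, and shows no likeness beyond them. Let-7i was higher in *Apcfl/fl* liver without overlap (log2 fold change 1.04), so its r also holds the difference between the genotypes. MiR-98 overlapped (0.62), and the deposited counts of both were highest in *Apcfl/fl* livers 2 and 3. Those most like miR-221 were miR-30b (r = 0.91), miR-152 (r = 0.91) and miR-335-5p (r = 0.84), all with a fitted level slightly lower in *Apcfl/fl* liver (log2 fold changes -0.36, -0.20 and -0.46).

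To place the members among other miRNAs of liver cancer, a list of 27 further miRNAs described as oncogenic in HCC was followed. Of these, 25 had a probe, 13 were tested, 8 of them with a higher and 5 with a lower fitted level in *Apcfl/fl* liver. In edgeR's test 0 of the 13 passed the adjusted threshold. At an unadjusted p-value under 0.05, 3 were higher and 1 was lower, against 13.8% and 10.9% of all tested miRNAs. The list's median log2 fold change was 0.22, beside 0.01 over all 174. It was 0.22 too when miR-155, the 1 member under the limit in every *Apc+/+* liver, was set to its bound. That bound lay above the median and so could not move it. The higher ones were miR-25, miR-106b of the same cluster, and miR-155. MiR-93, also of that cluster and on the list, overlapped between the genotypes (log2 fold change 0.22, unadjusted p = 0.51 in edgeR's test). MiR-155 reached the count minimum only through 2 *Apcfl/fl* livers, its genotypes overlapped (exact permutation p = 0.4), and its place in this count supports nothing. MiR-25 had a normalized count of 210 ± 18.9 against 423 ± 77.1 and miR-106b of 57.8 ± 6.75 against 106 ± 29.4 (SD, n = 3 in each genotype). Their log2 fold changes were 1 and 0.86 (adjusted p = 0.056 and 0.16 in edgeR's test). The lower one was miR-19b, a member of the growth-promoting miR-17-92 cluster, at -0.70 with a standard error of 0.24 (edgeR, adjusted p = 0.13). The listed miRNAs with the most counts beyond these were the probe for miR-20a and miR-20b, miR-23a, miR-27a and the probe for miR-106a and miR-17, with log2 fold changes of -0.17, 0.25, 0.14 and -0.19. A further 10 of the 25 listed miRNAs exceeded the viral probe limit in no liver, among them miR-224, miR-182 and miR-210.

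A second list held 28 miRNAs described as tumour suppressors in HCC. Of 27 with a probe, 21 were tested, 17 with a lower and 4 with a higher fitted level, and the median log2 fold change was -0.46. None passed the adjusted threshold (0 of 21). At an unadjusted p-value under 0.05, 8 were lower and 2 higher, beside 10.9% and 13.8% of all tested miRNAs. The lower ones were miR-148a (-1.31), miR-122 (-1.71), miR-145 (-1.71), miR-125b-5p (-0.94), miR-100 (-1.31), miR-203 (-0.78), miR-101a (-0.78) and miR-101b (-0.59), given as log2 fold changes. The higher ones were miR-125a-5p at 1.57 and the myeloid miRNA miR-223 at 1.40. The most abundant of the others were let-7c at 0.31, miR-29a at -0.32, miR-29c at -0.44 and miR-29b at -0.46. With the total count as library size the medians of the lists were 0.60 and -0.08, beside a median of all tested miRNAs that moved to 0.45.

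**Figure D4:**
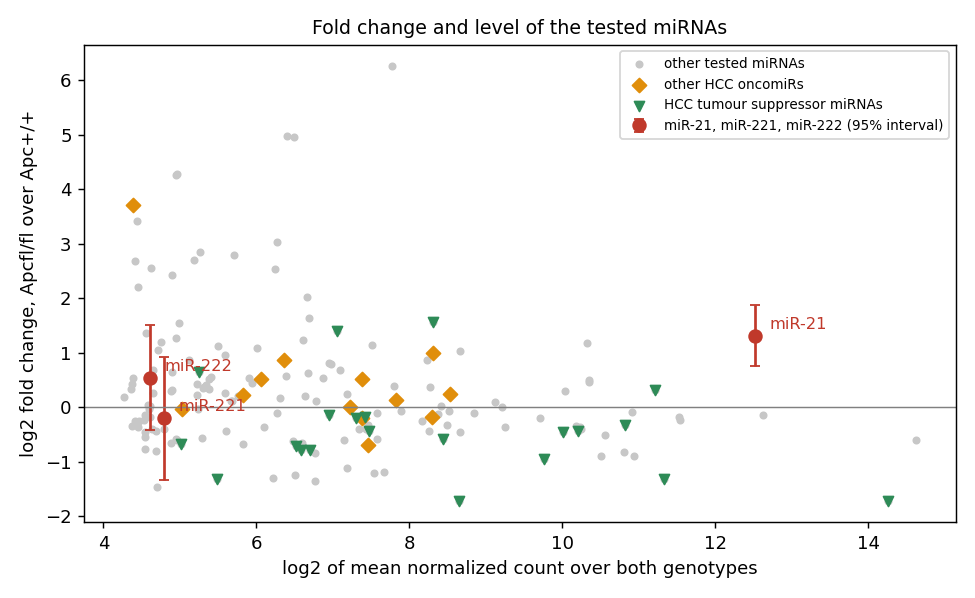
Log2 fold change of *Apcfl/fl* over *Apc+/+* liver (y axis) against the log2 of the mean normalized count (x axis) for the 174 tested miRNAs, with the members in red and their 95% intervals, the other miRNAs described as oncogenic in HCC as orange diamonds and those described as tumour suppressors as green triangles. MiR-21 stands at 1.31 among the most abundant miRNAs, and miR-221 (-0.20) and miR-222 (0.54) stand at the low end with intervals that include 0.

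Markers of the cells that a piece of liver holds were read in the same libraries. The summed normalized count of the 3 hepatocyte markers was 24530 to 39610 in *Apc+/+* and 8151 to 13940 in *Apcfl/fl* liver, lower in every *Apcfl/fl* liver, with 3 of 3 markers above the viral probe limit throughout. For the 6 leucocyte markers the sums were 248.2 to 489.4 and 347.8 to 891.6 and overlapped, and miR-142-5p stood at the lowest value in every liver. Among the 5 tested leucocyte markers, miR-223 had an unadjusted p-value under 0.05 in edgeR's test and was higher in every *Apcfl/fl* liver, where 13.8% of all tested miRNAs were higher at this threshold. MiR-155 had one too, with the limits given above. The other tested leucocyte markers overlapped between the genotypes, with log2 fold changes of 0.12 for miR-142-3p, -0.11 for miR-150 and 0.68 for miR-146a. The 2 endothelial markers, the strands of miR-126, summed to 3585 to 3807 in *Apc+/+* and 2764 to 3552 in *Apcfl/fl* liver. The 5 mesenchymal markers on the panel summed to 893.9 to 1318 and 322.3 to 725.1, again lower in every *Apcfl/fl* liver. Of these, miR-145 (log2 fold change -1.71) and miR-143 (-1.11) were lower without overlap. MiR-199a-3p (-0.18) and miR-199a-5p (-0.71) overlapped between the genotypes, and miR-214 was not tested. The 3 red cell markers overlapped, at 856.4 to 1404 against 795.8 to 4561, and were highest in *Apcfl/fl* liver 2. The summed 6 epithelial markers also overlapped, at 107.7 to 194.4 against 92.95 to 222.8, but single ones went in opposite directions. MiR-31 was lower without overlap (log2 fold change -1.47, unadjusted p = 0.02 and adjusted p = 0.12 in edgeR's test). MiR-200a (0.33), miR-200b (0.31) and miR-429 (0.68) overlapped, and the others were not tested. Of the 6, 0 exceeded the viral probe limit in all livers and 2 exceeded it in none. The hepatocyte sum was mostly miR-122 (log2 fold change -1.71), while miR-192 and miR-194 stood at -0.39 and -0.51. With TMM scaling the hepatocyte, endothelial and mesenchymal sums were thus lower in every *Apcfl/fl* liver, where miR-21 was higher. Of all tested miRNAs, 18.4% were lower without overlap, and the endothelial sums lay close, at 3552 against 3585. The sums were not taken with other scalings. *Apcfl/fl* liver 3 had the highest leucocyte sum, 891.6, and the highest deposited count of miR-222. The normalized count of miR-222 was highest in *Apcfl/fl* liver 2 (36.01 against 32.83), where the leucocyte sum was 533.8. The part of these markers in the levels of miR-21, miR-221 and miR-222 was not tested.

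**Figure D5:**
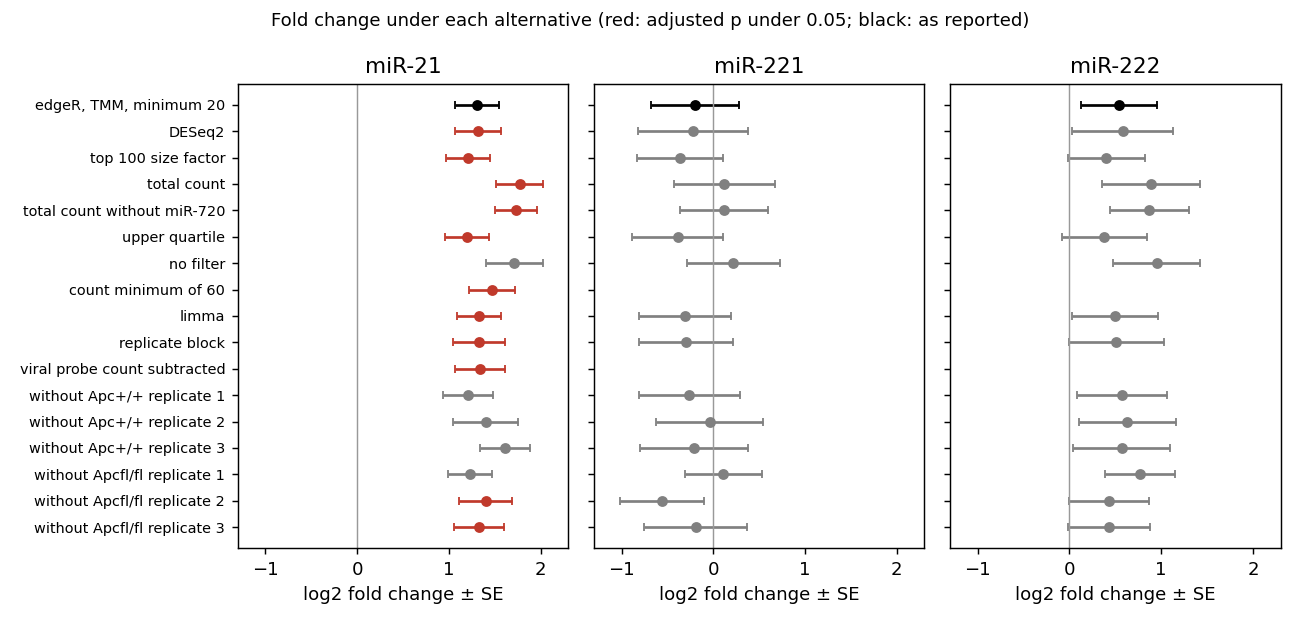
Log2 fold change with its standard error (x axis) of each member in the fit as reported (black) and under each alternative (y axis), in red where the adjusted p-value was under 0.05. MiR-21 lies between 1.20 and 1.77 throughout, miR-222 lies above 0 wherever it was tested, and miR-221 lies on both sides of 0. With the higher count minimum or the viral probe count subtracted, miR-221 and miR-222 were not tested.

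The direction of each member was followed over the processing. MiR-21 was higher in *Apcfl/fl* liver in all 16 alternatives, with log2 fold changes from 1.20 to 1.77, and passed the adjusted threshold in 11 of them. Measured from the median of the tested miRNAs it was at 1.29 with TMM scaling and at 1.31 with the total count. Its adjusted p-value in edgeR's test was 0.047 without *Apcfl/fl* liver 2 and 0.049 without *Apcfl/fl* liver 3. It missed the threshold without *Apcfl/fl* liver 1 (0.074), without *Apc+/+* livers 1, 2 or 3 (0.16, 0.17 and 0.067) and with no filter (0.089). MiR-222 had a positive log2 fold change in the 14 alternatives that tested it, from 0.38 to 0.95. Its lowest adjusted p-value was 0.23, in edgeR's test. These alternatives reuse the same livers, and miR-222 met the count minimum only through the *Apcfl/fl* livers. Its constant sign is therefore not independent evidence of a difference. The higher count minimum and the subtraction of the viral probe count, which address background, left miR-222 untested. MiR-221 ran from -0.56, without *Apcfl/fl* liver 2, to 0.22, and an adjusted p-value of 0.51 was its lowest.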

How the data were processed

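NanoString miRNA counts were used for 6 livers, 3 per genotype. Genotype and replicate number came from the sample labels, which name no batch. Each sample was taken as the liver of 1 mouse. The values that the authors deposited are estimated counts, not scaled between samples. In 584 of the 584 probes with at least 2 values above 1, these values shared 1 decimal part, so a probe-specific constant had been taken off, and 446 values (12.4%) stood at a floor of 1. The software used is not given in the sources used here, and 0 value columns lacked a sample. The table gives no genome build. Positions are those of the RefSeq sequences.

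Counts were rounded and tested with edgeR 4.0.16 in R 4.3.3 (quasi-likelihood, TMM, all 6 livers, no replicate block, count minimum 20, prior count 2, Benjamini-Hochberg over 174 miRNAs, which held 97.3% of the mouse counts). The test had been planned for counts with or without decimals, and the limit from the viral probes stands in for negative controls, which were not used here. Library sizes and tests left out the viral probes. Single values were compared with two-sided exact permutation tests. Between livers of 1 genotype the chi-square of counts per degree of freedom was 17.2 to 89.1, so none was counted as a duplicate. The procedure was tested on simulated data.

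The members, the lists and the tests were chosen with earlier results of these data known, and the lists were written from general knowledge. The miRNAs named were the members, panel miRNAs of the same seed, the 3 miRNAs most correlated with each member, and of each list those with an unadjusted p-value under 0.05 and up to 4 more with the most counts. Other miRNAs were named after their values were seen. Alternatives were DESeq2 1.42.0, limma 3.58.1, other scalings (the 100 most abundant miRNAs, total count, total count without miR-720, upper quartile), no filter, a count minimum of 60, subtraction of the mean viral probe count, a replicate block, and leaving out each liver.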

Additional observations from a re-analysis of the deposited data

How the results depend on the processing

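With 3 livers per genotype and counts near background, the values of miR-221 and miR-222 had wide errors, and a count minimum of 60 or the subtraction of the viral probe count left both untested. MiR-21 had an adjusted p-value under 0.05, and log2 fold changes of 1.32 with DESeq2, 1.21 with the 100 most abundant miRNAs, 1.77 with the total count, 1.73 when this left out miR-720, 1.20 with the upper quartile, 1.47 with the count minimum of 60, 1.33 with limma and 1.34 with viral probe subtraction. Without 1 liver its log2 fold change ranged from 1.21 to 1.61. MiR-221 changed sign with the total count (0.12), that count less miR-720 (0.12) and no filter (0.22), and ranged from -0.56 to 0.11 without 1 liver, the only positive value being that without *Apcfl/fl* liver 1. The causes were not tested. MiR-222, which met the count minimum only through the *Apcfl/fl* livers, kept its direction, from 0.43 to 0.77 without 1 liver. 

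The fit as reported called 0 miRNAs lower and 0 higher at the adjusted threshold. These numbers were 9 and 20 with DESeq2, 6 and 1 with the 100 most abundant miRNAs, 1 and 16 with the total count, 3 and 18 without miR-720, 6 and 2 with the upper quartile, 6 and 12 with the count minimum of 60, 3 and 1 with limma, 0 and 0 with no filter, and 7 and 12 when the viral probe count was subtracted. Leaving out 1 liver gave 0 to 8 lower miRNAs and 0 to 11 higher ones, with both maxima in the absence of *Apcfl/fl* liver 3. The median of the other oncogenic miRNAs was 0.60 with the total count and 0.59 without miR-720. That of the tumour suppressors was -0.08 with each of these and -0.04 with no filter, where the median of all 566 miRNAs was -0.04 as well. With viral probe subtraction the ratio differences were 1.73 for miR-222 over miR-221, 1.84 for miR-21 over miR-221 and 0.10 for miR-21 over miR-222.

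Livers of the same number were not paired by the data (correlations of deviations -0.06, -0.06 and 0.12 over the 3 numbers). The fit with the replicate block called 3 lower and 4 higher miRNAs, and miR-21 (1.33, adjusted p = 0.041 in edgeR's test) was past the threshold, while miR-221 (-0.30) and miR-222 (0.51) were not.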
